A study of Homo sapiens with 38 samples.

Results

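The response of the 16R6-4 clone to a low-dose drug combination was measured over 5 of the 38 arrays of the study: 3 arrays of cells given 10 nM GSK212 with 0.1 µM GSK436 and 2 arrays of cells given DMSO, the vehicle. The arrays were picked by their titles, but this comparison was chosen with earlier results of these data known. A375 is a human melanoma cell line. 16R6-4 is a single A375-derived clone that had acquired resistance to GSK436, so the results describe 1 clone. GSK436 (GSK2118436, dabrafenib) inhibits mutant BRAF, and GSK212 (GSK1120212, trametinib) inhibits MEK. All cells were grown in RPMI1640 with serum and exposed for 24 h. Arrays used alongside were the clone with 0.1 µM GSK436 alone (3 arrays), with 10 nM GSK212 alone (3) and with 10 nM GSK212 and 1 µM GSK436 (3), and parental A375 with DMSO (3) and with the low-dose combination (3). The clone with 1 µM GSK436 alone (3) and with 30 nM GSK212 alone (3) is shown for single genes only.

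BRAF, MEK and ERK are kinases that act in sequence, and in melanoma cells with mutant BRAF this cascade is constantly active. ERK switches on genes for transcription factors and for the G1 cyclin D1. It also switches on its own brakes: the DUSP phosphatases, which remove phosphate from ERK and related kinases, and the Sprouty and SPRED proteins, which restrain signalling upstream of RAF. These genes fall quickly when ERK is blocked and are widely used as a readout of ERK output.

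The deposited values were linear array signals, which the authors had scaled to a trimmed mean of 149.84 to 149.96 on every array. RNA integrity was read from actin control probe sets, as signal at the 3′ end over signal at the 5′ end. This actin ratio was 6.98 and 3.95 in the DMSO arrays and 33.3, 18.4 and 11 in the combination arrays, so it moved with the treatment. The GAPDH ratio was 1.29 and 1.07 against 1.85, 1.07 and 1.33. Arrays of the combination correlated with each other with r of 0.939 to 0.947 across genes, the DMSO pair with 0.956, and arrays across the 2 groups with 0.927 to 0.936. Of 10 measured melanocyte and melanoma markers, MITF, MCAM, PRAME and CSPG4 lay above the median of all values in all 5 arrays, while TYR, TYRP1, MLANA, PMEL, SOX10 and S100B lay below it in all 5. The summed signal of this list was 2906 to 3002 with DMSO and 3693 to 4189 with the combination. None of 10 leukocyte markers was above the median in all 5 arrays (sums of 91.1 to 126 and of 127 to 253), 1 of 8 endothelial markers was (TIE1, with sums of 179 to 290 and of 174 to 304), and 6 of 15 epithelial markers were (8383 to 11832 and 11268 to 13299). Precision is limited by how few arrays there were. The labels leave unsaid whether each array stands for its own culture, so p-values reflect array-to-array spread, which may be technical.

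The low-dose combination lowered the ERK program of the resistant clone and raised many other genes. The largest fall was in DUSP6, and the phosphatases DUSP5 and DUSP4, the ETS factors ETV5 and ETV4, cyclin D1 (CCND1) and the immune checkpoint ligand CD274 (PD-L1) fell with it. MEGF6, ALPP, CLIC3 and DIO2 had the largest rises. Of 18063 genes tested, 877 (4.86%) were called in a linear model (limma, adjusted p under 0.05 and at least 1 on the log2 scale), 691 higher (3.83%) and 186 lower (1.03%). Arrays of the 2 groups did not overlap in 27.9% of all genes in the upward direction and in 12.5% in the downward one. Changes are log2 ratios of signal plus 2.8, so the fold of a gene near background depends on that constant.

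The balance of rises and falls depended on how arrays were scaled. As deposited, the median gene was 0.22 higher with the combination, and 78.8% of called genes were higher. With each array centred on its median, the median gene lay at -0.16 and 939 genes were called, 330 higher and 609 lower (35.1% higher). After quantile normalization 492 were called, 313 higher and 179 lower (63.6% higher). Without the second DMSO array 529 were called. Without the arrays with an actin ratio above 20, which removes 1 of the 3 combination arrays, 864 were called, and with the actin ratio as a covariate 928 were, 633 of them in common with the 877.

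**Figure D1:**
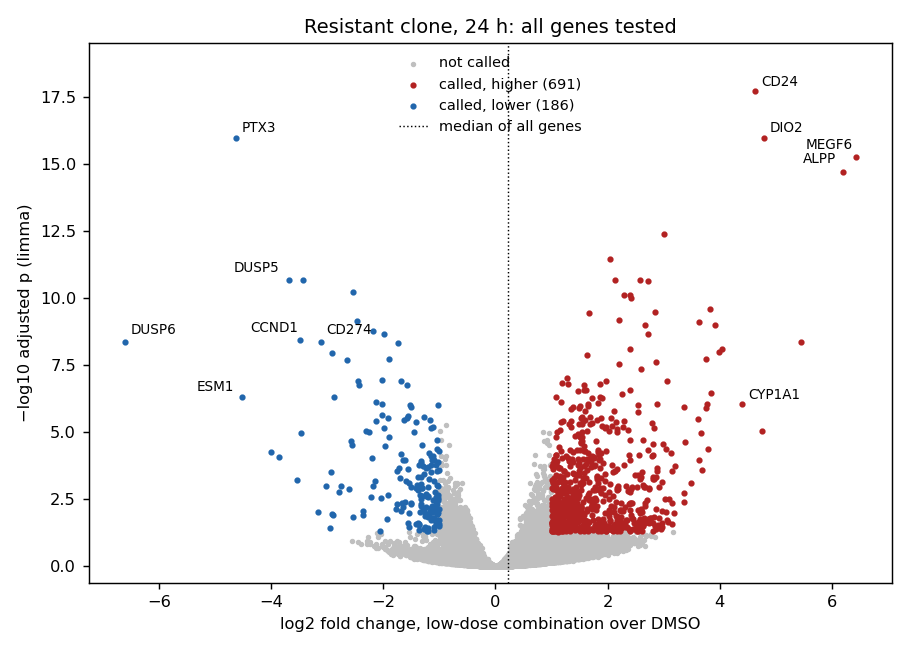
Each point is 1 of 18063 genes in the resistant clone. The horizontal axis is the log2 fold change of the low-dose combination (3 arrays) over DMSO (2 arrays), the vertical axis is -log10 of limma's adjusted p, and coloured points are called (691 higher, 186 lower). DUSP6 lies farthest to the left at -6.60 and MEGF6 farthest to the right at 6.43, and the dotted line marks the median gene at 0.22.

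Of 44 measured ERK output genes in 4 lists, 22 fell and 1 rose, against 4.86% called among all genes. Their median change was -1.65, against 0.22 over all genes. Centring gave 28 lower and 1 higher, and quantile normalization 21 lower and 1 higher. The count was 25 without the arrays of high actin ratio and 22 with that ratio as a covariate. In bulk RNA, fewer cells that express a gene and less RNA per cell cannot be told apart.

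The phosphatase DUSP6, which dephosphorylates ERK in the cytoplasm, had signals of 1828 and 1412 with DMSO and of 27.3, 4.6 and 17.5 with the combination. Every combination array was far below both DMSO arrays. The log2 change was -6.60 ± 0.64 (SE, 3 against 2 arrays, limma adjusted p = 4.2e-09). DUSP5, which acts on nuclear ERK, went from 1672 and 1483 to 117, 103 and 145, a change of -3.68 ± 0.28. DUSP4, another nuclear phosphatase, went from 667 and 653 to 52.9, 78.0 and 49.2, a change of -3.43 ± 0.26. DUSP7 fell by 1.14 on the log2 scale.

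The stress kinase phosphatase DUSP10, which acts mainly on JNK and p38, moved the other way. Its signal was 111 and 94.0 with DMSO and 315, 266 and 346 with the combination, a rise of 1.56 ± 0.21. DUSP8, also a JNK and p38 phosphatase, had a change of 1.51 that did not pass (adjusted p = 0.11). DUSP1 and DUSP2 had changes of -0.15 and -0.50 and did not pass either.

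Of 7 Sprouty and SPRED genes 3 fell and 4 were not called. SPRY2 had signals of 261 and 426 with DMSO and of 62.7, 50 and 12.6 with the combination (change -3.16 ± 0.81, adjusted p = 0.0096). SPRED2 fell by 1.65 on the log2 scale, and SPRED1 by 1.54, a call lost under 7 of 18 other settings. SPRY4 went from 147 and 133 to 35.3, 30.7 and 12.8, and the groups did not overlap, yet its change of -2.39 ± 0.98 did not pass (adjusted p = 0.14). SPRY1, SPRY3 and SPRED3 had changes of -0.13, 0.79 and -0.95 and were not called.

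Among the called feedback genes that were searched, those with the lowest adjusted p were DUSP6, DUSP10, DUSP7 and SPRED2. Promoter sequence is shown for 3 of them: DUSP6 and SPRED2, which fell, and DUSP10, which rose. DUSP7, which also fell, is not shown. Each is the RefSeq window (GRCh38.p14) from 250 bases before a transcription start to 10 bases after it, 5′ to 3′ on the minus strand. The positions are chr12:89352492-89352751 for DUSP6, chr1:221742080-221742339 for 1 of the 2 DUSP10 starts and chr2:65366769-65367028 for 1 of the 2 SPRED2 starts, the one with a match. Capitals mark a match to an AP-1 motif.
DUSP6: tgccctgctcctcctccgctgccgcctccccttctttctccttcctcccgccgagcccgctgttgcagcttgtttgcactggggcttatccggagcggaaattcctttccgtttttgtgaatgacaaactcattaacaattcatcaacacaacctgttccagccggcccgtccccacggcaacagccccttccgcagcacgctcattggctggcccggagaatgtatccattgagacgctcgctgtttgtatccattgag
DUSP10: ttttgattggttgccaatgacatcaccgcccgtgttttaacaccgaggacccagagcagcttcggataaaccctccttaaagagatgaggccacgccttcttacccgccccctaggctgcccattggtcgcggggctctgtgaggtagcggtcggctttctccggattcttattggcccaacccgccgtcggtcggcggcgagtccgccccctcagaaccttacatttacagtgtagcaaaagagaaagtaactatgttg
SPRED2: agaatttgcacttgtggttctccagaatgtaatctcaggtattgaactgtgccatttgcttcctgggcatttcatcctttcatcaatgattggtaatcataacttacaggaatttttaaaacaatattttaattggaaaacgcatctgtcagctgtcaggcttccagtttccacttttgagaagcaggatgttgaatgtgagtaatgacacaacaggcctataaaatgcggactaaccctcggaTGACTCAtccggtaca

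Windows of 300 bases, ending 50 bases after the start, were searched on both strands for an ETS core (GGAAGT), an AP-1 motif (TGACTCA), a CRE (TGACGTCA) and an E-box (CACGTG). These letters occur in 22.8%, 4.95%, 1.85% and 7.26% of 35116 RefSeq promoters. Among windows of DUSP6, DUSP10, DUSP7 and SPRED2, the single match, which overlapped no other, was TGACTCA in 1 of the 2 SPRED2 windows, beginning 6 bases before the start. The called feedback genes DUSP4, DUSP5, ETV4 and ETV5 were not searched. Over 10 windows of the other 6, DUSP6, DUSP10, DUSP7, SPRED2, SPRY2 and SPRED1, 1 held the ETS core, in SPRY2, and 1 the AP-1 motif.

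Of 14 measured ERK-driven transcription factors, 6 fell and 0 rose. ETV5, an ETS factor of the PEA3 group, went from 822 and 625 to 60.1, 26.4 and 63.0, and its relative ETV4 from 291 and 174 to 21.5, 31.5 and 6.17. Their changes were -3.86 ± 0.64 and -3.55 ± 0.69. Neither overlapped between groups, and the PEA3 member ETV1 had a change of 0.25 that was not called. Of the 5 probe sets of ETV5, 4 had the same sign. The 5 of ETV1 ran from -2.31 to 0.34, with 2 of the sign given.

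The AP-1 family was uneven. FOSL1 (FRA1), which ERK stabilises and induces, went from 3273 and 2047 to 543, 537 and 547, a fall of 2.25 on the log2 scale. MAFF, a small MAF protein, fell by 2.47 and the ETS repressor ELK3 by 2.03, although the other of its 2 probe sets was at 0.06. EGR1, an immediate early gene, fell by 2.06 (adjusted p = 0.048), a call lost under 10 of 17 other settings. FOS had a change of -2.45 and MYC of -2.04, from 732 and 1227 to 190, 230 and 270, and neither passed (adjusted p = 0.12 and 0.062). JUN (-0.63), JUNB (0.75), FOSL2 (0.25), IER2 (-0.51) and EGR3 (-0.92) were not called.

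Of the 15 other ERK output genes, 9 fell and 0 rose. CCND1, the cyclin that starts G1 with CDK4 and CDK6, went from 3050 and 2082 to 210, 244 and 217, a change of -3.48 ± 0.33 (adjusted p = 3.6e-09). The receptor EPHA2 went from 1920 and 2006 to 194, 390 and 215 (-2.94 ± 0.54). HMGA2, an architectural chromatin protein, went from 5371 and 5674 to 1480, 1096 and 1561 (-2.02 ± 0.23). PHLDA2 fell by 2.65, ITGA2 by 2.36, IER3 by 2.18, PLAUR by 1.98, TFPI2 by 1.98 and PHLDA1 by 1.64 on the log2 scale. Changes of EMP1 (-0.91), PLAT (-0.94), ERRFI1 (-0.85), EPHA4 (-0.59), LIF (-0.22) and VGF (0.68) were not called.

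**Figure D2:**
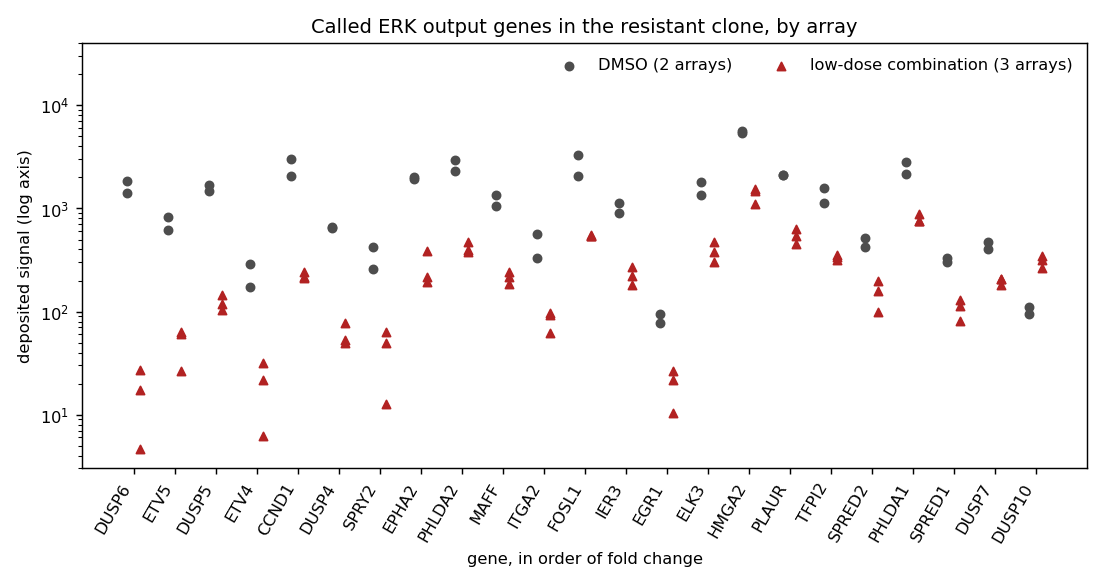
Deposited signal (log axis) of the 23 called ERK output genes in each array of the resistant clone, with DMSO as circles and the low-dose combination as triangles, in order of fold change. In 22 genes the 3 triangles lie below both circles, and DUSP10 is the exception.

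The genes of the RAF, MEK and ERK cascade itself did not show this. Of 14 measured members 0 were called by limma (2 of 14 had an adjusted p under 0.05 with changes under 1: MAPK3, which encodes ERK1, at 0.97, and the RAS relative RRAS at 0.95). Their median was 0.29, and it was -0.09 after centring and 0.01 after quantile normalization. MAP2K1, which encodes MEK1, had signals of 656 and 930 with DMSO and of 585, 646 and 560 with the combination, a change of -0.39 ± 0.36. MAP3K8 (COT), a kinase that can activate MEK without RAF, was near background at 2.12 and 10.8 with DMSO and at 32.0, 21.1 and 31.9 with the combination, and its change of 1.90 did not pass (adjusted p = 0.21).

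Of 21 measured G1 genes, 5 fell and 2 rose, and 14 were not called (1.03% of all genes were called lower and 3.83% higher). Centring gave 6 lower and 1 higher, and quantile normalization 5 and 1. With CCND1, the cyclins CCNE2 (529 and 675 to 271, 153 and 176, a change of -1.61 ± 0.27), CCND3 (-1.2) and CCNE1 (-1.02) and the phosphatase CDC25A, which activates CDK2 (-1.57), fell. CDKN1B (p27), an inhibitor of CDK2, rose from 214 and 398 to 1071, 1072 and 880 (1.77 ± 0.37), and the pocket protein RBL2 (p130), which holds E2F targets silent in resting cells, rose by 1.25. CDKN1A (p21) had a change of 0.85, below the required size. The inhibitor gene CDKN1C was not called, although all 4 of its probe sets were higher, by 1.19 to 2.46.

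Of 23 measured DNA replication genes 21 were not called. The loading factors CDC6 (610 and 734 to 374, 242 and 359, -1.06 ± 0.19) and MCM10 (574 and 685 to 237, 230 and 281, -1.33 ± 0.25) fell. The list had a median of -0.54, against 0.22 over all genes. Of 24 mitosis genes 0 were called by limma, with a median of -0.07. TOP2A had a change of 0.02, CCNB1 of -0.07 and PLK1 of -0.06. After centring, 7 replication genes and 1 mitosis gene were lower, and after quantile normalization 2 and 0.

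Of 20 measured genes linked to quiescence and restraint of growth 8 rose, 0 fell and 12 were not called (3.83% of all genes were called higher), with a median of 0.89 against 0.22 over all genes. Centring gave 5 higher and 1 lower, and quantile normalization 7 and 0. CCNG2, a cyclin found in arrested cells, went from 52.1 and 48.3 to 486, 292 and 243 (2.63 ± 0.40). KLF9, a repressor of the Krüppel-like family, went from 52.2 and 31.3 to 221, 255 and 206 (2.40 ± 0.28), and DDIT4 (REDD1), which inhibits mTORC1, from 269 and 279 to 772, 1325 and 926 (1.83 ± 0.23). All 3 were above DMSO in every combination array. YPEL3 rose by 1.92, ARRDC3 by 1.70, the antiproliferative TOB1 by 1.51, YPEL5 by 1.46 and TXNIP, which restrains thioredoxin and glucose uptake, by 1.24.

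**Figure D3:**
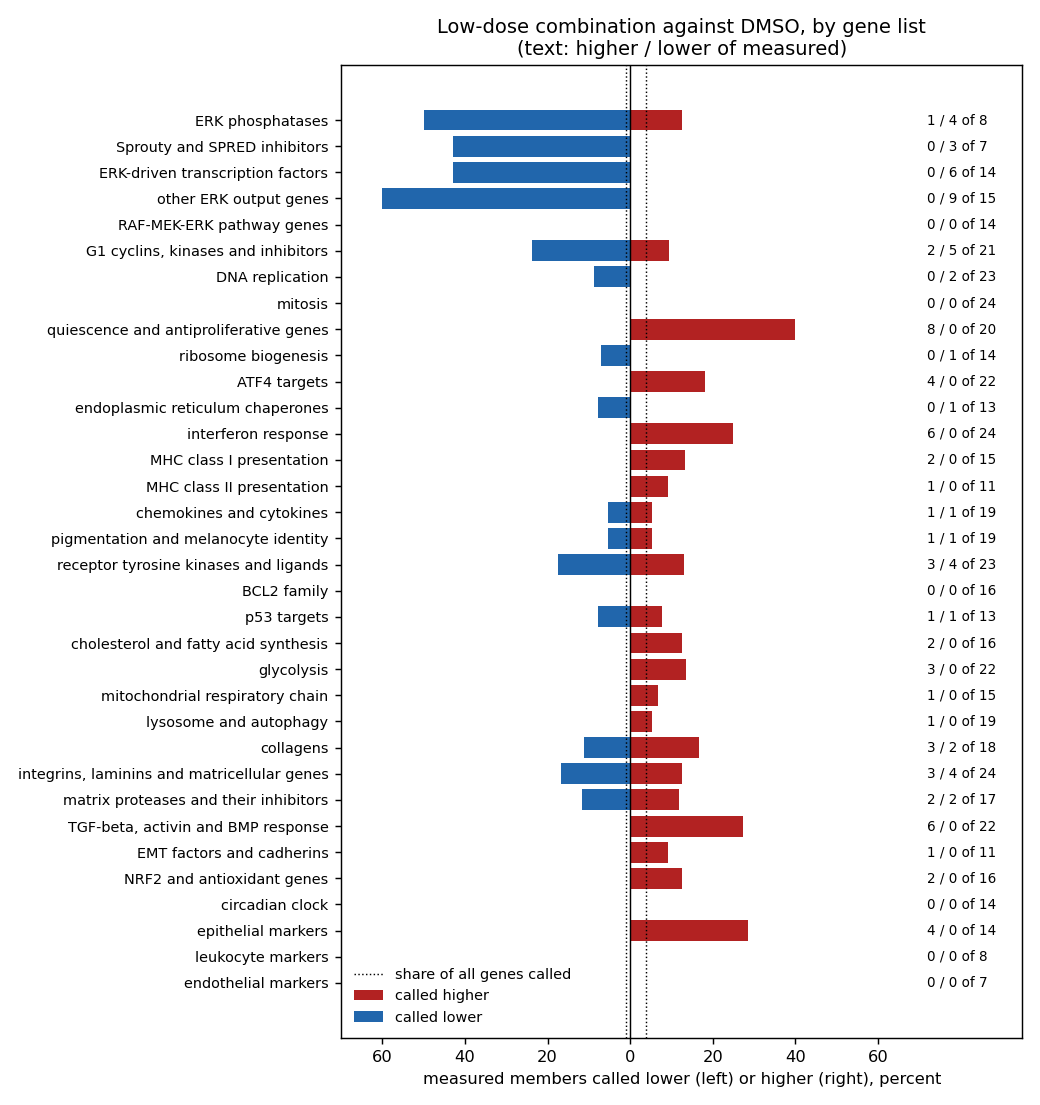
Bars give the percent of measured members of each of 34 gene lists that were called higher (right) or lower (left) with the low-dose combination against DMSO in the resistant clone, and the text gives the counts. Dotted lines mark the share among all genes (3.83% higher, 1.03% lower). The 4 ERK output lists extend to the left, and the quiescence list, with 8 of 20 higher, extends farthest to the right.

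The 12 genes with the largest rises had signals of at most 124 with DMSO. MEGF6, a protein with EGF-like domains, went from 1.06 and 3.93 to 350, 541 and 439 (6.43 ± 0.33), and ALPP, placental alkaline phosphatase, from 3.87 and 1.27 to 297, 509 and 357 (6.19 ± 0.34). DIO2, which converts thyroxine to the active hormone, went from 124 and 116 to 3882, 3014 and 3321 (4.78 ± 0.23, adjusted p = 1.0e-16). CD24, a surface glycoprotein, went from 45.2 and 48.9 to 1269, 1232 and 1210 (4.64 ± 0.19). These 4 genes were named among those whose arrays did not overlap, so that separation was set by the choice. CYP1A1, a cytochrome P450 induced through the aryl hydrocarbon receptor, went from 2.00 and 3.41 to 131, 109 and 99.9 (4.40 ± 0.56). The others were the chloride channel protein CLIC3 (5.46), VAC14-AS1 (4.76), AHNAK2 (4.03), WFDC21P (3.98), SHOC1 (3.92), TMT1A (3.85, with 3 of 4 probe sets of the same sign) and the water and glycerol channel AQP3 (3.82). VAC14-AS1 is an antisense gene.

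Several of the largest falls lay outside the ERK lists. PTX3, a soluble pattern recognition protein, went from 2349 and 2592 to 89.1, 94.6 and 107 (-4.64 ± 0.22, adjusted p = 1.0e-16). ESM1 (endocan) went from 770 and 937 to 38.5, 37.1 and 28.1 (-4.52 ± 0.55), and RGS4, which shortens G protein signals, from 703 and 831 to 31.8, 71.7 and 40.2 (-4 ± 0.65). CD274, which encodes PD-L1 and inhibits T cells, went from 1621 and 1940 to 203, 198 and 204 (-3.12 ± 0.30). The matricellular protein CCN2 (CTGF), a target of YAP and TGF-beta, fell from 1999 and 3510 to 203, 268 and 248 (-3.46 ± 0.51). Each of these 5 genes was lower in all 3 combination arrays than in both DMSO arrays.

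Receptor tyrosine kinases and their ligands changed in both directions. Of 23 measured members 3 rose and 4 fell, while 3.83% of all genes were called higher and 1.03% lower. Centring and quantile normalization each gave 2 higher and 4 lower. The receptors ERBB3 (9.12 and 3.74 to 59.8, 71.3 and 47.6, 2.8 ± 0.54), PDGFRB (5.06 and 2.31 to 38.4, 72.9 and 40.8, 3.02 ± 0.68) and ERBB2 (1.14) rose. EGFR fell by 1.36, with 5 of 6 probe sets of the same sign. The EGFR ligands HBEGF and TGFA fell by 1.78 and 1.33 on the log2 scale. Each had 2 of 3 probe sets of the same sign. The endothelial growth factor VEGFA fell by 1.42.

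TGF-beta, activin and BMP response genes gave 6 rises and 0 falls of 22, which was 5 and 1 after centring. Among all genes 3.83% were called higher and 1.03% lower. ID2 (2.72), ID3 (1.80) and ID1 (1.17) encode inhibitors of basic helix-loop-helix factors and are classic BMP targets. ID2 went from 108 and 104 to 582, 1133 and 561. The inhibitory SMAD6 (1.65), the pseudoreceptor BAMBI (1.83) and the activin-binding FSTL3 (1.95) rose with them.

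Of 24 interferon response genes 6 rose and 0 fell: the interferon regulatory factor IRF9 (2.02), OAS1 (1.92), MX1 (1.74), IFITM1 (1.72), IFI6 (1.19) and ISG15 (1.01). After centring 4 were higher and 1 lower, and after quantile normalization 1 was higher. In MHC class I presentation 2 of 15 rose, the transactivator NLRC5 (68.0 and 30.5 to 203, 190 and 215, 2.08 ± 0.36) and the loading factor TAPBP (1.08). In class II 1 of 11 rose, the invariant chain CD74 (26.6 and 29.0 to 83.1, 100 and 79.2, 1.55 ± 0.30). After centring 1 class I and 1 class II gene were higher, and after quantile normalization 1 and 0. Among all genes 3.83% were called higher.

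Epithelial genes gave 4 rises of 14 measured, against 3.83% called higher among all genes. They were CD24, the keratin KRT8 (1.33), the adhesion protein DSP (1.40) and SFN (14-3-3 sigma, 1.87). Among other keratin and epithelial markers, KRT18 was high with DMSO (10031 and 7132) and with the combination (6280, 6718 and 8074), while KRT19 reached at most 13.9 and EPCAM at most 27.2 in any of the 5 arrays. Of the melanocyte list, TFAP2A rose by 1.61 and SOX9 fell by 2.12, with 17 of 19 not called. SOX9 went from 338 and 346 to 68.6, 71.0 and 91.1.

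The matrix lists were mixed, while 3.83% of all genes were called higher and 1.03% lower. Of 18 collagens 3 rose, among them COL1A1 (2.56, with 3 of 5 probe sets of the same sign) and COL5A1 (1.70), and 2 fell, COL13A1 (-3.03) and COL6A3 (-1.04). COL5A2 rose by 1.00. Of 24 integrins, laminins and matricellular genes 3 rose (ITGB8 2.98, ITGB4 2.8 and TGFBI 1.38) and 4 fell (CCN2, ITGA2, ITGB5 -1.59 and LAMB3 -1.33). Of 17 proteases and inhibitors, MMP3 (504 and 501 to 2478, 2064 and 2258, 2.16 ± 0.32) and TIMP2 (1.17) rose, and PLAUR and ADAMTS1 (-1.28) fell. SNAI2 (1.10) was the only called gene of 11 EMT factors and cadherins, and its call was absent after centring and after quantile normalization.

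Of 22 targets of the stress factor ATF4, 4 rose: NUPR1 (136 and 88.8 to 628, 594 and 565, 2.41 ± 0.24), INHBE (3.38), ATF3 (1.64) and DDIT3 (CHOP, 1.08). In metabolism, ALDOC (1.57), PFKFB4 (1.49) and PDK4 (2.04) rose of 22 glycolysis genes, INSIG1 (1.28) and SREBF1 (1.19) of 16 lipid synthesis genes, PPARGC1A (2.22, a call lost under 10 of 17 other settings) of 15 respiratory chain genes, and GABARAPL1 (1.68) of 19 lysosome and autophagy genes. Single calls in lists of this size are near the 3.83% called higher among all genes. AKR1C1 (1.16) and AKR1B10 (1.65) rose of 16 antioxidant genes. The calls of the lipid synthesis, PPARGC1A and antioxidant genes were absent after centring and after quantile normalization. Only 1 of 2 probe sets had the reported sign for CCND3, PFKFB4 and PPARGC1A. The count was 2 of 3 for PHLDA2, CD74, TAPBP, CSF1 and PDK4. For AKR1C1 it was 3 of 4, and for ITGB4 and ITGB8 4 of 5. Single members fell in ribosome biogenesis (RRP9, -1.34) and among chaperones (SDF2L1, -1.11).

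The p53 list gave TP53INP1 higher (2.79) and GDF15, a stress cytokine, lower (1682 and 1688 to 210, 320 and 299, -2.62 ± 0.55). TNFAIP3, an inhibitor of NF-kappaB, fell by 2.32 and CSF1 rose by 1.39 among 19 chemokines and cytokines. Of 16 BCL2 family genes limma called 0, although BIK (0.96), MCL1 (-0.67) and PMAIP1 (NOXA, -0.74) had an adjusted p under 0.05 with changes under 1. After centring 3 of the 16 were lower and 0 higher, and after quantile normalization 0 were called. None of 14 clock genes, 8 leukocyte markers or 7 endothelial markers was called, although 1 endothelial marker was lower after centring.

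The combination was then set against each of its parts in the same clone. Against 0.1 µM GSK436 alone, 834 genes differed (4.62%), 625 higher (3.46%) and 209 lower (1.16%) (74.9% higher, 51.9% after centring and 64.7% after quantile normalization). ERK output genes were 20 lower and 2 higher of 44 (median -1.28, against 0.08 over all genes). DUSP6 had signals of 1190, 1395 and 1864 with 0.1 µM GSK436, against 27.3, 4.6 and 17.5 with the combination, a difference of -6.46 ± 0.57 (adjusted p = 4.3e-10). CCND1 had 2069, 2654 and 4177 with GSK436 alone, all above the combination arrays. DIO2 (4.33), AQP3 (4.37), MEGF6 (6.39) and ALPP (6.49) were higher with the combination. Against DMSO, 0.1 µM GSK436 alone called 1 gene (0.00554%, with 786 at an unadjusted p under 0.05), LURAP1L, at 2.53 ± 0.35, named after its value was seen.

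Against 10 nM GSK212 alone, 1 gene differed, PTX3 (0.00554%, with 913 genes at an unadjusted p under 0.05). PTX3 had signals of 235, 185 and 239 with GSK212 alone and of 89.1, 94.6 and 107 with the combination, a difference of -1.15 ± 0.20 (adjusted p = 0.031), with no overlap. The call was lost under 10 of 19 other settings. Of 44 ERK output genes limma called 0, with a median difference of -0.34 against 0.02 over all genes.

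A missing call does not show that the treatments act alike. DUSP6 had 51.8, 68.6 and 60.7 with GSK212 alone, all above the 3 combination arrays (5.98% of all genes were separated this way), and a difference of -1.92 with a 95% interval from -3.09 to -0.76 (adjusted p = 0.70). CCND1 had 517, 440 and 479, also above the combination, with an interval from -1.70 to -0.48 (adjusted p = 0.63). For DUSP4 the interval was -1.44 to -0.48, for CD24 0.52 to 1.21 (adjusted p = 0.095) and for DIO2 -0.21 to 0.63. These intervals are for single genes and are not adjusted for the number of genes tested. Set against the same 2 DMSO arrays, 10 nM GSK212 alone called 500 genes (2.77%), 389 higher (2.15%) and 111 lower (0.615%), and the combination 877. The changes were -4.68 and -6.60 for DUSP6, -2.39 and -3.48 for CCND1, 3.77 and 4.64 for CD24 and 4.58 and 4.78 for DIO2, with GSK212 alone first.

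**Figure D4:**
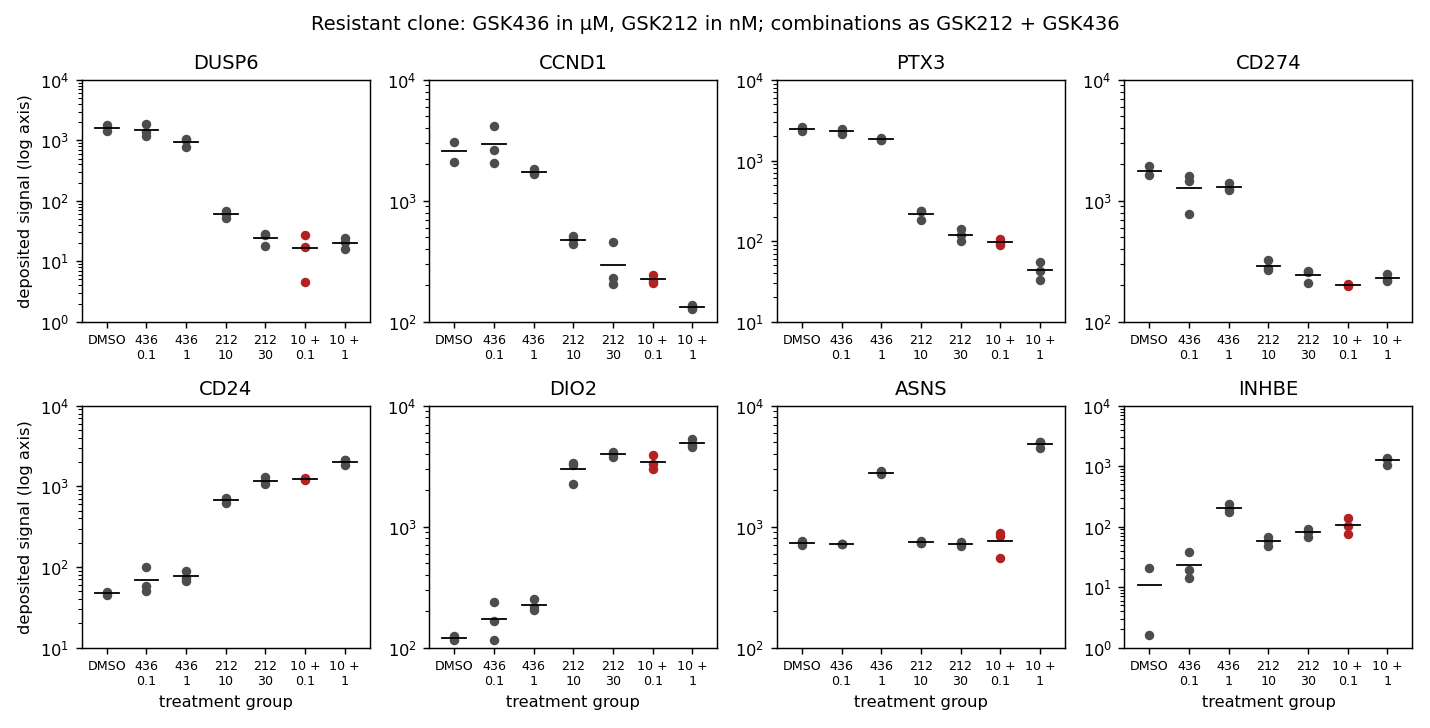
Deposited signal (log axis) of 8 genes in every array of the resistant clone, by treatment, with a line at each group's mean and the low-dose combination in red. DUSP6, CCND1, PTX3 and CD274 are low and CD24 and DIO2 high in every group with GSK212, while ASNS is high in both groups with 1 µM GSK436.

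Raising GSK436 from 0.1 to 1 µM, with GSK212 held at 10 nM, changed few genes. In all 31 differed (0.172%), 29 higher (0.161%) and 2 lower (0.0111%). Of 22 ATF4 targets 13 were higher at 1 µM and 0 lower, with a median of 1.13 against -0.02 over all genes, and of 44 ERK output genes limma called 0 (737 of all genes at an unadjusted p under 0.05). ASNS, asparagine synthetase, had 878, 555 and 836 at 0.1 µM and 4497, 4983 and 5046 at 1 µM, a difference of 2.70 ± 0.14 (adjusted p = 1.4e-15). At 0.1 µM it had not differed from DMSO beyond the spread (763 and 700, change 0.02 ± 0.15).

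INHBE, an inhibin subunit, rose at both steps, from 20.3 and 1.61 with DMSO to 140, 75.3 and 102 and then to 1059, 1335 and 1391 (second step 3.58 ± 0.46). SLC7A11, the cystine transporter, differed by 2.18 between doses, the mitochondrial PEPCK gene PCK2 by 1.89 and the serine synthesis gene PHGDH by 1.88. NUPR1 differed by 1.85, DDIT4 by 1.47, the tRNA ligase genes WARS1, AARS1 and GARS1 by 1.52, 1.08 and 1.05, PSAT1 by 1.29, DDIT3 by 1.18, PSPH and TRIB3 by 1.14 each and ATF4 itself by 1.01. VEGFA differed by 1.22, a call lost under 11 of 19 other settings. With 1 µM GSK436 and no GSK212, ASNS had 2724, 2829 and 2862.

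The 2 genes that were lower at 1 µM were PTX3 (-1.13 ± 0.20) and the pseudokinase gene TRIB2 (-2.39 ± 0.50). TRIB2 went from 193 and 165 with DMSO to 35.4, 21.0 and 18.5 and then to 2.54, 2.14 and 2.24, near background, and its call was lost under 8 of 19 other settings. The count of 31 fell to 20 without the second low-dose array, to 19 without the second array at 1 µM and to 16 without the third.

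The same low-dose combination was given to parental A375 cells, where 1913 genes were called against DMSO (10.6%), 1258 higher (6.96%) and 655 lower (3.63%). The size of the change differed between lines in 142 genes (0.786%), with 82 changes more positive (0.454%) and 60 more negative (0.332%) in the resistant clone. Without the second resistant DMSO array the count was 73. Of 44 ERK output genes, 4 were more positive and 1 more negative in the clone (0.786% of all genes were called), and 39 were not called. Their median difference was 0.37, against 0.04 over all genes, and 33 of 44 lay above 0. In parental cells 27 of the 44 fell and 2 rose, with a median change of -1.94. In the clone 22 fell and 1 rose, with a median of -1.65. The baseline levels of the lines also differed for several of the genes below.

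PHLDA2 fell in both lines but less in the clone, from 3289, 3011 and 3592 to 144, 169 and 96.5 in parental cells and from 2946 and 2310 to 476, 392 and 380 in the clone (difference 1.95 ± 0.37). MAFF behaved likewise (1.29 ± 0.30). EMP1, a tetraspan membrane protein, had 3998, 3094 and 2708 in parental cells and fell to 106, 180 and 221, while in the clone it had 2005 and 2865 and then 1609, 982 and 1308 (difference 3.38 ± 0.45). LIF, an interleukin 6 family cytokine, fell in parental cells by 1.66 and had a change of -0.22 in the clone (difference 1.44 ± 0.35). JUN went the other way, with 0.90 in parental cells and -0.63 in the clone (difference -1.53 ± 0.23).

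More cell cycle genes were called lower in parental cells, with 17 of 23 replication genes and 9 of 24 mitosis genes (3.63% of all genes). These counts differ in precision from those of the clone. The parental change rests on 3 against 3 arrays (median SE 0.40 over all genes), that of the clone on 3 against 2 (0.45). The difference between lines itself was called in 1 replication gene and 3 mitosis genes (0.786% of all genes were called). All 4 changes were more positive in the clone, and they were chosen for naming after their values were seen. AURKA, a mitotic kinase, had 2129, 1958 and 1858 and fell to 931, 790 and 926 in parental cells, and had 1383 and 1224 and then 1740, 1242 and 1591 in the clone (difference 1.38 ± 0.20, adjusted p = 8.0e-05). UHRF1, which maintains DNA methylation, differed by 1.24, the spindle checkpoint kinase TTK by 1.15 and cyclin A2 (CCNA2) by 1.00. The median difference was 0.70 over the replication list and 0.82 over the mitosis list, against 0.04 over all genes.

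The largest differences were in genes that were induced or lost in parental cells. MGP, an inhibitor of calcification, rose from 1.33, 2.01 and 1.38 to 1716, 2226 and 2205 in parental cells, and in the clone from 0.71 and 1.42 to 35.1, 38.3 and 6.21 (difference -6.22 ± 0.73). The glucose transporter SLC2A12 rose from 4.92, 4.41 and 6.86 to 581, 640 and 765 in parental cells, and was 10.9 and 17.4 and then 6.84, 7.66 and 28.1 in the clone (-6.53 ± 0.66). OLFML2A (-5.58) and the sialyltransferase gene ST6GALNAC2 (-4.39) were likewise induced in parental cells and near background in the clone.

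Follistatin (FST), an activin antagonist, fell from 2222, 2062 and 2513 to 198, 108 and 136 in parental cells, while the clone had 8393 and 6473 with DMSO and 4097, 5895 and 4814 with the combination (difference 3.36 ± 0.36). NTM, a neural adhesion protein, fell by 3.98 in parental cells and had a change of 0.93 in the clone (difference 4.91 ± 0.39). CD24 rose in both lines, from 56.1, 63.7 and 79.8 to 3080, 3536 and 3966 in parental cells, by 1.04 ± 0.26 more than in the clone.

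**Figure D5:**
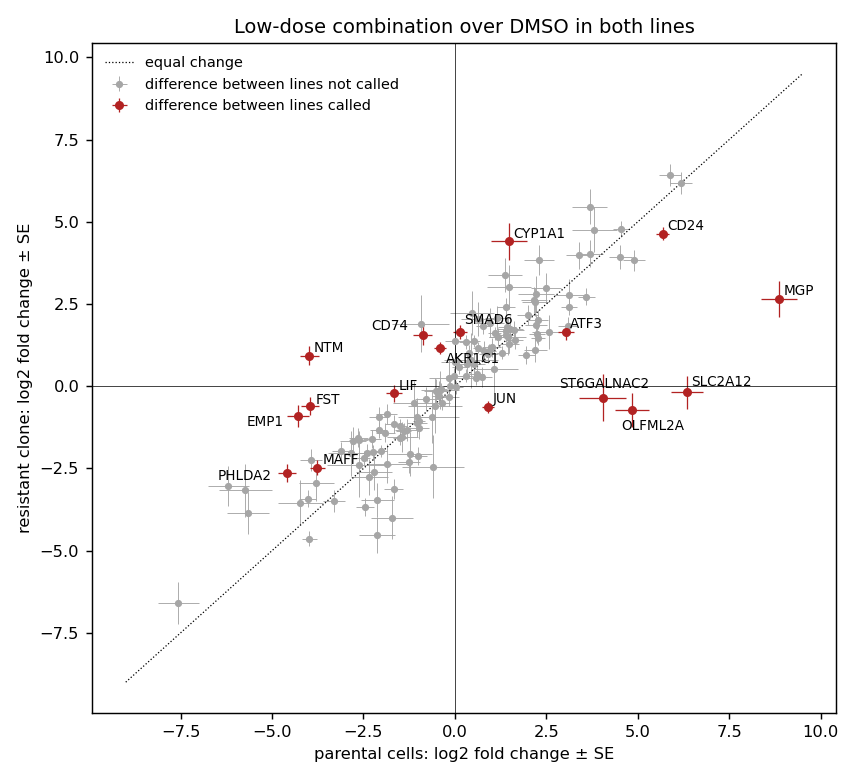
Log2 fold change of the low-dose combination over DMSO in parental cells (horizontal) and in the resistant clone (vertical), with standard errors, for the genes eligible for naming. The 17 red genes have a called difference between lines, the dotted line marks equal change, and MGP, SLC2A12, OLFML2A and ST6GALNAC2 lie far to the right of it.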

How the data were processed

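Expression was measured on 38 single-colour Affymetrix arrays. The deposited values are linear signal intensity, and the submitters' processing notes name MAS5 without a version. Genome build and detection calls are not given in the sources used here. Per the labels' protocols, Trizol was used for RNA, of which 500 ng went into each cRNA labelling.

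Genes were assigned with GEO's platform annotation. Of 54675 probe sets 41097 named 1 gene, of which 41043 matched RefSeq, and 1801 named several genes and were left out. Probe sets above the pooled median of 34.88 on at least 2 arrays were kept (35888), and the brightest stood for each of 18063 genes. Values were log2 of intensity plus 2.8 (the 10th percentile). A model of 14 group means with 24 residual degrees of freedom was fitted to all arrays with limma 3.58.1 in R 4.3.3 (eBayes with trend, tested on simulated data), with two-sided p adjusted over all genes by Benjamini and Hochberg. Promoters were searched and figures drawn in Python with pandas and matplotlib. Other settings are listed in the closing section.

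The arrays compared and the 34 gene lists (601 members, 550 measured) were chosen with earlier results of these data known. Named genes were the first 12 called and non-overlapping in each direction, all ERK output and cascade genes, up to 4 called members of each other list and the first 4 in each direction of the other comparisons. Other list members, cell cycle and BCL2 genes were named after their values were seen. The ERK output genes FOSB and EGR2 were not analysed here, and some items are not reported here. Replicate numbers 1 and 2 are shared between the groups in the labels, but deviations of same-numbered arrays correlated at 0.0093 and -0.00011, so the numbers were not taken to pair the arrays.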

Additional observations from a re-analysis of the deposited data

Results flagged for a closer look

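The change with the low-dose combination differed between the lines in 142 genes by the interaction term in limma, and 17 of the genes named by rule are among them. Genes named after their values were seen, such as AURKA, UHRF1, TTK, CCNA2, CD276 and TNFSF9, are outside the 17. Differences are the change in the resistant clone minus that in parental cells, on the log2 scale. ERK output genes with a called difference were EMP1 (3.38), PHLDA2 (1.95), LIF (1.44), MAFF (1.29) and JUN (-1.53).

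More positive in the clone were NTM (4.91), FST (3.36), CYP1A1 (2.92), CD74 (2.43), AKR1C1 (1.57) and SMAD6 (1.51). CD74 had 570, 622 and 808 in parental cells with DMSO and 26.6 and 29.0 in the clone, and its change was -0.88 in parental cells and 1.55 in the clone. SMAD6 went from 64.6 and 68.7 to 211, 232 and 203 in the clone, and its change in parental cells was 0.14. CYP1A1 had 33.5, 47.6 and 28.1 in parental cells with DMSO, rose there by 1.48, and reached 102, 112 and 99.0, close to the 131, 109 and 99.9 of the clone. More negative in the clone were SLC2A12 (-6.53), MGP (-6.22), OLFML2A (-5.58), ST6GALNAC2 (-4.39), ATF3 (-1.4) and CD24 (-1.04).

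Of these 17 calls 5 were kept under all 24 other settings run for this comparison. The call of CYP1A1 was lost under 19 of them, those of CD24 and LIF under 12 each, that of ATF3 under 8 and that of MAFF under 7.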

How the results depend on the processing

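Other settings were quantile normalization, centring on the array median, a floor of 1 or a constant of 9.88 (25th percentile) in place of 2.8, a filter at 128.16 (75th percentile) or none, probe sets averaged per gene, eBayes without trend, only the groups compared, the replicate block, the actin ratio as a covariate, array weights and leaving out each array. One more, the removal of arrays whose actin ratio exceeded 20, was chosen after seeing the data. None of the 101 called genes that were named by rule changed sign in the comparison with DMSO, and 60 of them kept their call under every setting run. Among named genes that were not called, the sign did change, as for ETV1 (-2.31 to 0.50), DUSP1 (-0.52 to 0.36), SPRY1 (-0.57 to 0.21), FOSL2 (-0.13 to 0.58) and MAP2K1 (-0.77 to 0.17). SNAI2 lost its call under 12 of 18, AKR1B10 under 11 and COL5A2 under 8. Called genes against DMSO numbered 492 after quantile normalization (877 as reported) and 529 to 771 with 1 array left out. Called ERK output genes numbered 18 to 21 with 1 array left out, the lowest without the second DMSO array, and replication and mitosis genes 8 after centring and 1 to 2 with 1 array left out. Against 0.1 µM GSK436, only the groups compared gave 425 and array weights 1939, with 702 to 912 when 1 array was left out. Against 10 nM GSK212, centring, eBayes without trend and the replicate block gave 0, only the groups compared 2, the actin covariate 4, array weights 8, and leaving out 1 array 0 to 2. Between doses, only the groups compared gave 47, array weights 54, and leaving out 1 array 16 to 29. For the difference between lines, averaged probe sets gave 81, the actin covariate 280, array weights 353, and leaving out 1 array 73 to 132. The cause of these shifts was not tested. With the replicate block, 861 genes were called against DMSO, 829 of them shared with the 877, along with 834 against 0.1 µM GSK436, 32 between doses, 142 between lines, 23 ERK output genes and 2 replication and mitosis genes. The numbers do not pair the arrays. With 2 DMSO arrays the precision of every change from DMSO rests on the pooled spread of all groups.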

Other observations

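Because CYP1A1 stood among the largest rises, 8 genes of the aryl hydrocarbon receptor pathway were read out after its value was seen. In the resistant clone CYP1A1, which prompted the list, and 3 of the other 7 rose with the low-dose combination (3.83% of all genes were called higher), so the count is a description only. AHRR, the receptor's repressor, went from 80.8 and 85.0 to 320, 301 and 331, a change of 1.90 ± 0.23. CYP1B1, another P450, went from 7.81 and 16.1 to 65.0, 45 and 61.9 (2.07 ± 0.50), and the receptor gene AHR itself from 180 and 227 to 533, 486 and 445 (1.26 ± 0.26). TIPARP (-0.19) and NQO1 (0.22), also targets of the receptor, and CYP1A2 (0.74) and the partner ARNT (0.85) were not called. In parental cells the changes were 2.26 for AHRR, 4.57 for CYP1B1 and 0.21 for AHR.

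Because CD274 stood among the largest falls, 8 checkpoint and death ligand genes were read out in the same way. CD274 fell, the costimulatory ligand TNFSF9 (4-1BBL) rose by 1.02 ± 0.30, and the other 6 were not called. The TNFSF9 call was absent after centring and after quantile normalization. CD276 (B7-H3) had a change of -0.83 in the clone and of -2.07 in parental cells, a difference of 1.24 ± 0.26 that was called. Of its 3 probe sets, 2 were lower in the clone. The difference for TNFSF9, 1.73 ± 0.41, was called too (adjusted p = 0.024). The difference between lines for CD274, -1.44, was not called (adjusted p = 0.087).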
